A study of Mus musculus with 67 samples.

Results

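The RNA of 50 genes of nucleolar ribosome biogenesis was followed through 5 stages of the mouse preimplantation embryo, with and without exposure to light at the 2-cell stage. The members are the rows of the deposited table whose symbol is one of 50 listed genes, and all 50 were found among the 26414 genes of the table. They comprise 3 core proteins of box C/D snoRNPs, 4 core proteins of box H/ACA snoRNPs, 8 genes of rDNA transcription and nucleolar organisation, 21 small subunit assembly factors and 14 large subunit assembly factors.

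Ribosomes are assembled in the nucleolus, around the repeated genes for ribosomal RNA (rDNA). RNA polymerase I transcribes these genes into a long precursor, whose nucleotides are modified by small nucleolar ribonucleoproteins (snoRNPs): box C/D snoRNPs methylate ribose, and box H/ACA snoRNPs convert uridine to pseudouridine. A large set of assembly factors, many of them GTPases, helicases and WD-repeat proteins, then folds and cuts the precursor into the small and the large subunit. The fertilized egg and the early embryo hold compact precursor bodies in place of working nucleoli, and functional nucleoli form as the embryonic genome is activated.

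Embryos were from C57BL/6 mice, by in vitro fertilization for 24 h, of females aged 6 weeks and males aged 10 weeks. The light group had received 5000 lx for 6 h as 2-cell embryos and was kept in the dark afterwards, and the control group had been kept at 0 lx. Single cells were picked by hand from embryos taken apart with trypsin, and each gave 1 SMART-seq2 library of polyadenylated RNA, with 33 control and 34 light libraries in all. Control and light libraries numbered 7 and 6 for 2-cell embryos, 6 and 8 for 4-cell embryos, 4 and 8 for 8-cell embryos, 13 and 6 for morulae, and 3 and 6 for blastocysts. The labels give each library of a group a number and the word embryo, but name no litter, mouse or batch. They do not say which cells came from the same embryo, so the p-values measure only the spread between these libraries.

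Upstream sequences were read from RefSeq promoters (GRCm38.p6, 250 bases before to 50 after the start of a gene), which held 42 of the 50 members. The E-box CACGTG, a palindrome read by basic helix-loop-helix factors such as Myc and Max, was in a promoter of 9 of these members (21.4%). It was in 8.09% of all 27025 genes with a promoter and in 10.6% of the 13532 expressed ones. Expressed genes had a level above 1 CPM (a unit of relative read count, defined under the depth of the libraries) in at least 3 libraries. The ETS-type motif CCGGAAG, searched on both strands, was in 16 (38.1%), against 9.93% of all and 16.6% of expressed genes. Of 4 longer motifs, each searched in a single form on both strands, the NRF1 motif was in 8 (19%, against 5.19% and 9.33%), the ZNF143 motif in 3 (7.14%, against 2.08% and 3.69%), and the YY1 and M8 motifs in 0 of the 42 (against 1.42% and 0.961% of expressed genes). All 4 members with an E-box before the start are shown. The RNA of each was called higher in light at the 2-cell stage, as was that of 27 of the 50 members and 6.94% of all genes. Of all 9 members with an E-box 7 were called there, and of the 33 without one 18. The windows run along the strand of the gene, with up to 30 bases on each side of the E-box, which is in capitals.
Imp4: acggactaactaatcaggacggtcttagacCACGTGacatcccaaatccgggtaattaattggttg
Nop2: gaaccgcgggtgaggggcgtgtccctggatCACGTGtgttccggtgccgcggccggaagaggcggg
Utp18: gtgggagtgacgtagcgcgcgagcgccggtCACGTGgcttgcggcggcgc
Nol11: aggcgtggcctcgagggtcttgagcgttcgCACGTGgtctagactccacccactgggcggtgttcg
The window of Imp4 is chr1:34439678-34439743 (plus strand), that of Nop2 chr6:125131793-125131858 (plus strand), that of Utp18 chr11:93885767-93885816 (minus strand) and that of Nol11 chr11:107189389-107189454 (minus strand). The E-box starts 121, 60, 20 and 43 bases before the start of the gene, in that order. The other members with an E-box (Mybbp1a, Wdr43, Utp20, Tsr1 and Pes1) carry it in the bases after the start. An ETS-type motif near the start, again in capitals, is shown for 3 members from different role groups.
Nhp2: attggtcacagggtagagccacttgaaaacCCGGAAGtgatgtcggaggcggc
Heatr1: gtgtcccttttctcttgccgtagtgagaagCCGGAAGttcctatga
Nolc1: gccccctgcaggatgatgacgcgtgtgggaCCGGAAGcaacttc
These windows are chr11:51619720-51619772, chr13:12395329-12395374 and chr19:46075803-46075846, all on the plus strand, with the motif 23, 16 and 14 bases before the RefSeq start. In the GENCODE M21 annotation Nhp2 begins at 51619735 and Heatr1 at 12395027, so that these 2 motifs lie inside the annotated gene. A match of letters is not a bound site, and no binding was measured here.

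Reads on genes other than CT010467.1 and Gm42418, both derived from ribosomal RNA, numbered 318176 to 2867030 per library, the rRNA-derived pair taking 54.0 to 89.3% of all. Levels are given as CPM, counts per 1000000 of those reads. The members took 2061 to 34767 reads per library, and 49 or 50 of them had a read in every library, so that all 50 passed the filter on low values in every comparison. The ratio of Gm42418 to CT010467.1 did not overlap between the groups for 2-cell embryos (2.34 to 4.03 in control, 1.58 to 1.77 in light), for 8-cell embryos (2.01 to 2.34 and 1.52 to 1.71) and in morulae (2.34 to 4.14 and 1.49 to 1.67), so a difference in library preparation and the exposure to light cannot be told apart at these stages. The same limit bears on the 4-cell stage, where 5 of the 6 control libraries (1.80 to 4.55) were above every light library (1.43 to 1.63) and control 3 (1.61) was not. By the correlation of expression over all genes, 11 of the 67 libraries were nearest to a library of another stage (10 of the 12 8-cell libraries to a light 4-cell library, and control morula 26 to a control 4-cell library). A further 13 were nearest to a library of the other group of their own stage. These were light 2-cell library 15, control 4-cell library 3, 10 of the 13 control morula libraries and control blastocyst 2. Reads of Y-linked genes reached 10 CPM in 3 of 7 control and 2 of 6 light 2-cell libraries, in 4 of 6 and 8 of 8 at the 4-cell stage, in 0 of 4 and 3 of 8 at the 8-cell stage, in 0 of 13 and 1 of 6 morula libraries, and in 0 of 3 and 6 of 6 blastocyst libraries, and whether libraries of a group came from the same embryo was not tested. Of the listed markers, the table held 5 of 9 for cumulus cells and 6 of 7 for sperm. These summed to at most 38.5 and 8.65 CPM in any library.

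The summed level of the 50 members was lowest at the 2-cell stage and highest at the 4-cell stage in control embryos, and lowest in blastocysts in light. In control it was 4468 ± 1700.3 CPM (SD, n = 7) for 2-cell embryos, 16189 ± 1452 (n = 6) for 4-cell embryos, 12204 ± 770.3 (n = 4) for 8-cell embryos, 13885 ± 1259 (n = 13) for morulae and 5883 ± 1158 (n = 3) for blastocysts. In light, in the same order, it was 9541 ± 1966 (n = 6), 14249 ± 611 (n = 8), 14578 ± 829.9 (n = 8), 12442 ± 1951 (n = 6) and 6389 ± 701 (n = 6). At the 2-cell stage the libraries of the groups overlapped narrowly, with 2353 to 7036 in control and 6478 to 11801 in light. At the 8-cell stage they did not overlap (11606 to 13222 and 13308 to 15713), while at the 4-cell stage (14644 to 18167 and 13237 to 15214), in morulae (11644 to 16496 and 10126 to 15459.8) and in blastocysts (4563 to 6724 and 5277 to 7148) they did. The 8-cell sums overlapped on the other scales, at 10667 to 12464 in control and 11511 to 14818 in light with median ratio scaling and 6111 to 8877 and 8106 to 11057 on the deposited scale. On that scale the lowest control mean was that of blastocysts, at 3797 ± 825 against 6038 ± 2619 for 2-cell embryos (SD, n = 3 and 7). The sum is a share of the RNA of a cell, so more RNA of the members and less of other RNA cannot be told apart.

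**Figure D1:**
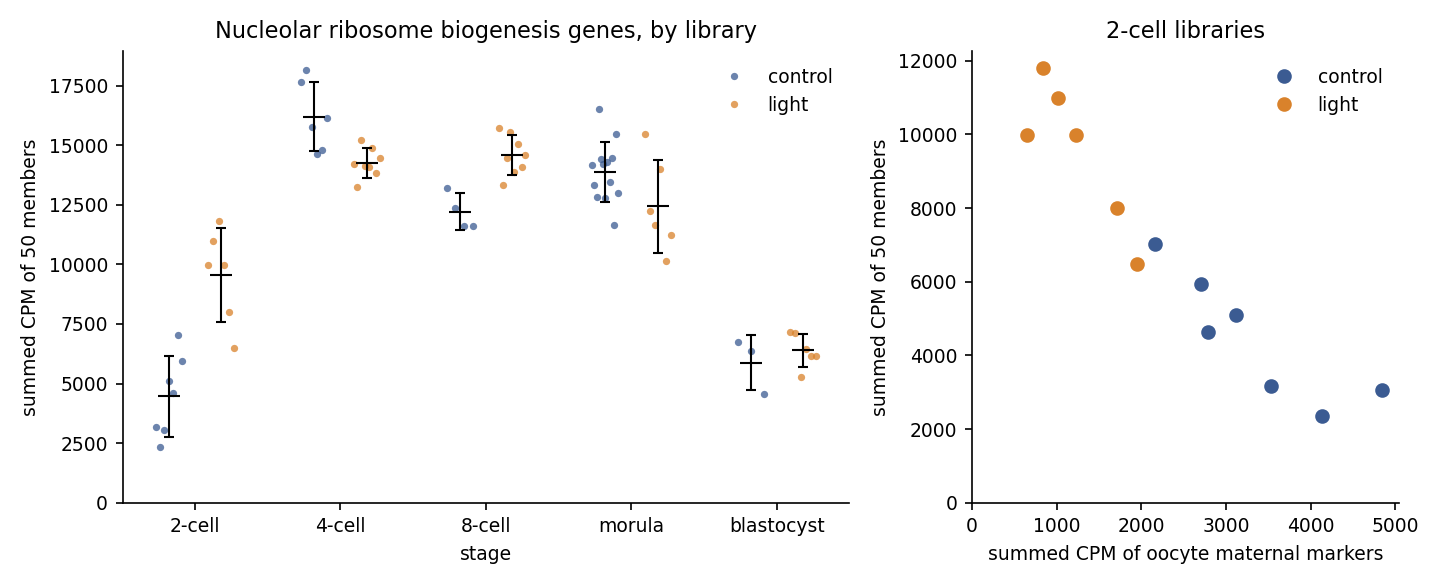
Left, summed CPM of the 50 members (vertical axis) in each library (points) by stage (horizontal axis), control in blue and light in orange, with the mean and SD of each group as bars. Right, the same sum in the 2-cell libraries against the summed CPM of 10 oocyte maternal markers. The light 2-cell libraries sit at 6478 to 11801 CPM and the control ones at 2353 to 7036.

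The makeup of the sum differed between stages. Npm1, the abundant nucleolar chaperone nucleophosmin, gave 6.42% of the sum in control 2-cell libraries, 18.0% in 4-cell, 12.0% in 8-cell, 23.2% in morula and 12.3% in blastocyst libraries (means). In light the shares were 4.06%, 9.86%, 10.4%, 14.1% and 8.52%. The 8 genes of rDNA transcription and nucleolar organisation, Npm1 included, held 41.7% to 50% of the sum in control and 29.7% to 38.5% in light 4-cell libraries, without overlap. In morulae the same share was 43.7% to 59.5% in control and 35.9% to 44.1% in light, with an overlap at the edge. The 21 small subunit factors held a mean of 37.3% at the control 2-cell stage and 18.1% in control morulae, against 39.2% and 24.8% in light. Per kb of exon, the levels over all libraries were highest for Npm1 (608 CPM per kb), Nhp2 (344) and Nolc1 (185), and lowest for Wdr12 (10.1) and Noc3l (10.3). Npm1 and Fbl each nearly match transcripts of 3 other genes in the annotation, between which the counting could have split reads. Those genes had mean levels of 18.8 and 123 CPM in sum. For Fbl they are Gm5812, Gm6211 and Tulp4, counted with all their reads, so 123 CPM is not the level of Fbl copies alone.

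By mean level, 27 of the 50 members were highest in 4-cell embryos in control, 13 in 8-cell embryos, 9 in morulae and 1, Noc3l, in 2-cell embryos. In light, 11 were highest in 2-cell embryos, 17 in 4-cell embryos, 14 in 8-cell embryos, 7 in morulae and 1, Nop10, in blastocysts. The lowest stage was the 2-cell stage for 28 members in control and for 7 in light, and the blastocyst for 19 and 38.

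**Figure D2:**
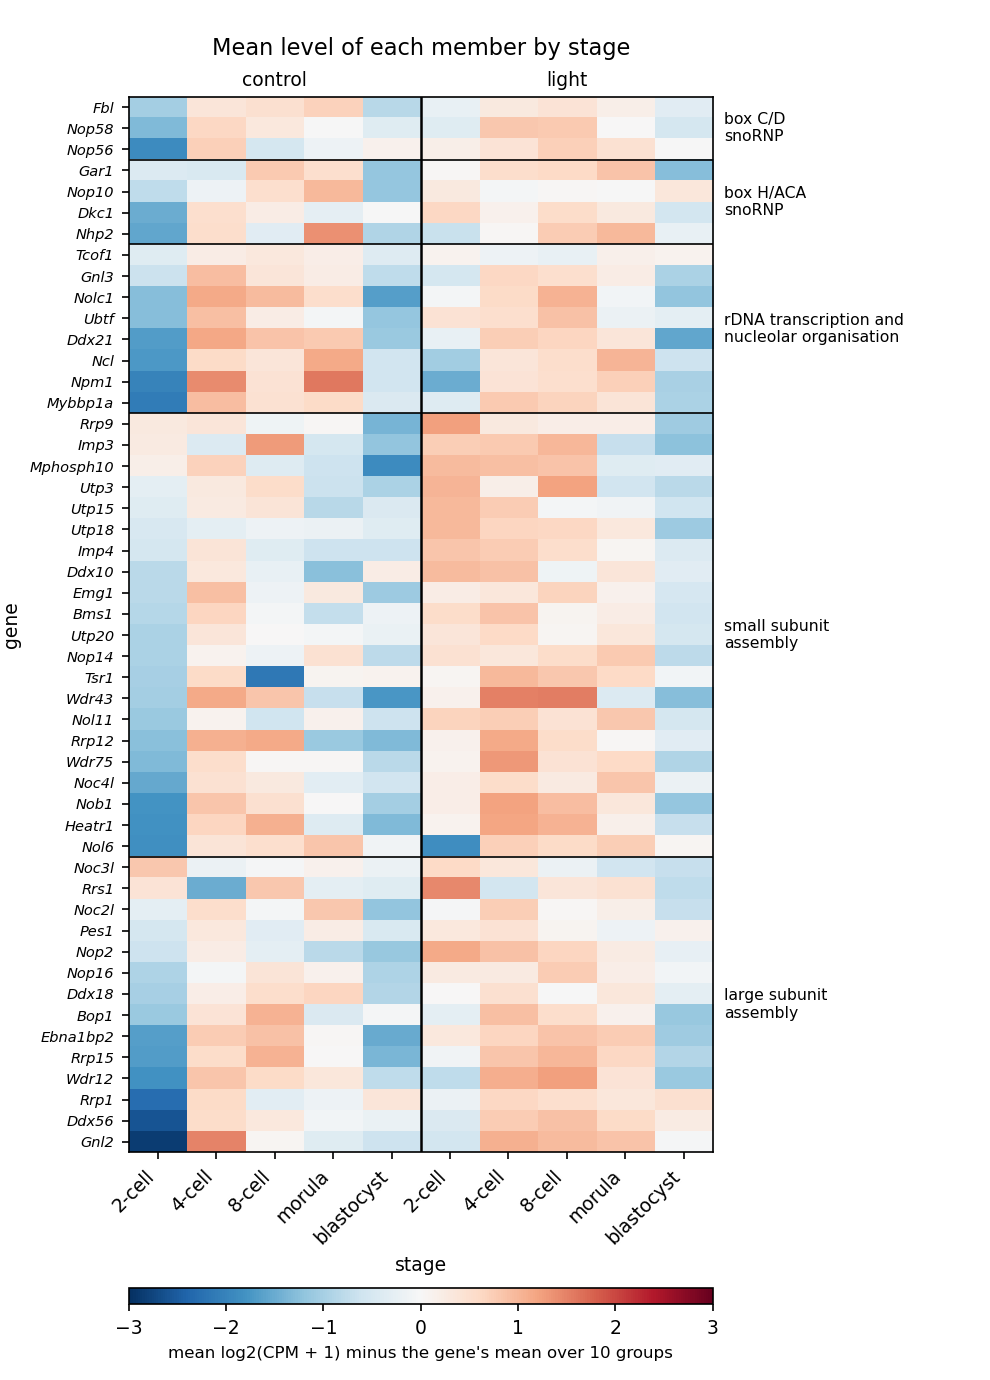
Mean log2(CPM + 1) of each member (rows, ordered within 5 role groups by the control 2-cell level) in each of 10 groups (columns), minus the mean of the gene over the 10 groups, with blue for low and red for high values. The control 2-cell column is low for most genes, while the light 2-cell column is near or above the mean of the gene for many, with Npm1 and Nol6 low in both.

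The first comparison, light against control at the 2-cell stage, is of cells taken soonest after the exposure. Of the 50 members, 27 were called higher in light and 0 lower, where 12% of all 18090 genes tested were called, 6.94% as higher and 5.02% as lower. A gene was called with a Benjamini-Hochberg adjusted p under 0.05 over all genes by limma on log2(CPM + 1) and a change of 2-fold or more. The median difference of the members was 1.26 on the log2 scale, against 0.05 for all genes, and 48 of 50 were positive. For 11 members (Nop56, Dkc1, Nop10, Ddx21, Rrp9, Wdr43, Utp20, Utp15, Utp18, Ebna1bp2 and Rrp1) the libraries of the groups did not overlap, as for 4.81% of all genes. Of these 11, Rrp9 was not called, with a difference of 0.95 ± 0.26 (SE), adjusted p = 0.013.

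Among the core proteins of the box C/D particle, Nop56 rose in light. Its levels lay between 51.3 and 121 (median 68.1) CPM in control and between 258 and 400.1 (median 329) in light. Every light library was above every control library, and the difference was 2.06 ± 0.28 (SE), adjusted p = 2.31e-05. Nop56 (GRCm38, chromosome 2, 130274430 to 130279313) is a scaffold of the particle together with Nop58. Nop58, at 165 ± 81.9 CPM in control and 302 ± 139 in light (SD, n = 7 and 6), did not pass the test, with 0.95 ± 0.35 (SE), adjusted p = 0.0718. Fibrillarin (Fbl), the methyltransferase itself, had 109 ± 38.8 and 189 ± 67.5 CPM and did not pass either (0.79 ± 0.32 SE, adjusted p = 0.105).

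Of the 4 box H/ACA proteins, Dkc1 and Nop10 rose. Dyskerin (Dkc1, chromosome X, 75095854 to 75109777) is the pseudouridine synthase of the particle, and its levels lay between 43.2 and 173 (median 61.1) CPM in control and between 196 and 396 (median 354) in light. The groups did not overlap, and the difference was 2.10 ± 0.32 (SE), adjusted p = 7.3e-05. Nop10, a small protein bound to dyskerin, rose by 1.05 ± 0.34 (SE) on the log2 scale, from 51.0 ± 18.2 to 102 ± 17.4 CPM (adjusted p = 0.0405). Nhp2 and Gar1, the other core proteins, did not pass, with differences of 0.90 (adjusted p = 0.0861) and 0.44 (adjusted p = 0.512).

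Of the 8 genes of rDNA transcription and nucleolar organisation, 4 rose: Ubtf, the upstream binding factor of RNA polymerase I, by 1.73 on the log2 scale, Mybbp1a, a nucleolar regulator of that polymerase, by 1.71, the nucleolar RNA helicase Ddx21 by 1.46 and Nolc1, a chaperone of snoRNPs, by 1.22 (adjusted p between 0.00233 for Ubtf and 0.0093 for Nolc1). Ubtf levels lay between 28.2 and 189 (median 70.2) CPM in control and between 148 and 380.2 (median 258) in light. The other 4 genes of this group, among them the abundant Npm1 and Ncl, did not pass. Npm1 lay between 134 and 408 (median 301) CPM in control and between 220.0 and 546 (median 385) in light, overlapping over most of the range, with a difference of 0.51 ± 0.27 (SE), adjusted p = 0.227. Nucleolin (Ncl), which binds the precursor RNA, had a difference of 0.69 (adjusted p = 0.0614), treacle (Tcof1), which serves rDNA transcription, one of 0.47, and the GTPase nucleostemin (Gnl3) one of 0.12.

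The small subunit factors had the largest share of calls, 14 of 21, with a median difference of 1.35. They spanned the early and the late part of the pathway. Of the subunits of the complex that binds the precursor first, Heatr1 (from 42.2 to 141 CPM), Nol11 (82.9 to 215), Utp15 (122 to 299) and Wdr43 (157 to 344) rose, and Wdr75 (42.6 and 108) did not pass. Of the complex of Imp3, Imp4 and Mphosph10, Imp4 rose, by 1.34, while Imp3 (0.46) and Mphosph10 (0.77) did not pass. Utp18, Utp20, Utp3, Nop14, Noc4l, Rrp12, the GTPase Bms1 and the helicase Ddx10 were called too. Nob1, the endonuclease that makes the final cut of the small subunit rRNA, lay between 6.34 and 149 (median 56.7) CPM in control and between 70.9 and 243 (median 131) in light. Its difference was 1.98 ± 0.56 (SE), adjusted p = 0.0164, with an overlap between the groups. The Nob1 call was lost with no filter and by edgeR (1.38). Nol6 had a difference of -0.01 on the log2 scale, at 48.8 ± 30.3 CPM in control and 95.3 ± 102 in light.

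Of the 14 large subunit factors 6 rose, among them the 3 largest differences of all members. Gnl2, a nucleolar GTPase, lay between 0 and 31.3 (median 19.8) CPM in control and between 15.7 and 115 (median 73.3) in light, and its difference was 2.30 ± 0.70 (SE), adjusted p = 0.0263. The Gnl2 call was lost with no filter, with median ratio scaling and without any of 6 libraries (control 11 and 12, and light 9, 10, 12 and 14), the lowest difference being 1.72 without control 11. The helicase Ddx56 had 30.3 ± 24.8 CPM in control and 104 ± 37.5 in light (2.16 ± 0.53 SE, adjusted p = 0.00601). Rrp1 lay between 19.1 and 49.6 (median 24.0) CPM in control and between 81.7 and 169 (median 138) in light. For Rrp1 no light library was as low as a control one, with a difference of 2.11 ± 0.36 (SE), adjusted p = 0.000217. Ebna1bp2 (1.97), the rRNA methyltransferase Nop2 (1.76) and Rrp15 (1.56) also rose. The 3 genes of the PeBoW complex, Pes1 (0.84), Bop1 (0.82) and Wdr12 (1.05), did not pass, and Noc3l had the lowest difference of all members (-0.20, adjusted p = 0.807). Of the 23 members in all role groups that did not pass, 21 had a positive difference, the highest being that of Wdr75 (1.43, adjusted p = 0.0522). Set beside the promoters, 7 of the 9 members with an E-box and 18 of the 33 without one were called, as were 9 of the 16 with the ETS-type motif and 16 of the 26 without.

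**Figure D3:**
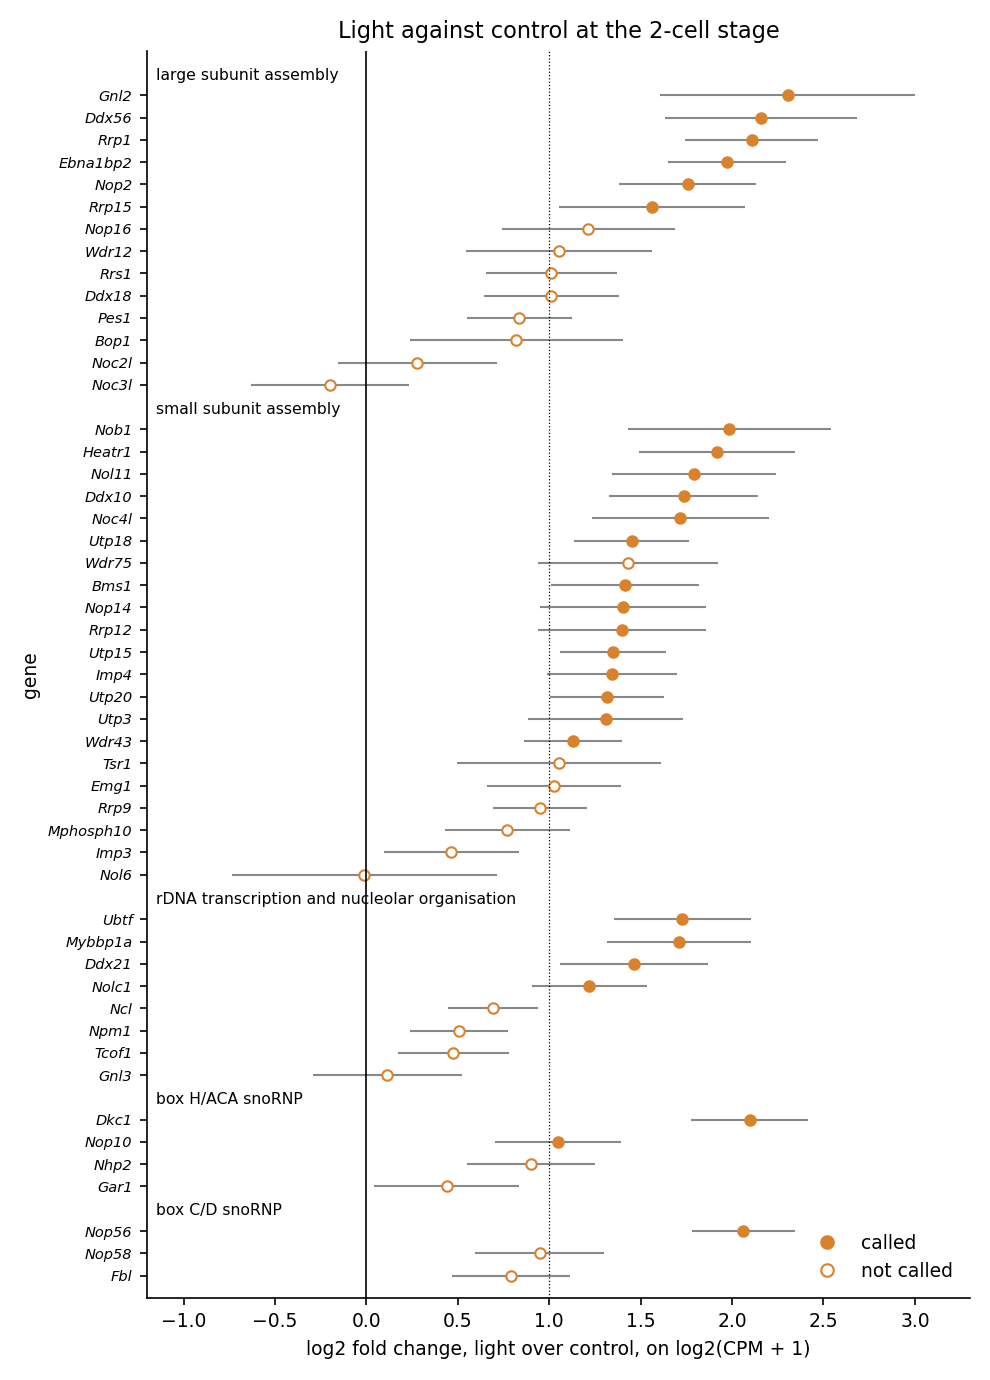
Difference of each member between light and control 2-cell libraries (horizontal axis, log2 fold change on log2(CPM + 1), bars for the SE), grouped by role, with filled points for called genes and a dotted line at a log2 fold change of 1. The points lie between -0.20 (Noc3l) and 2.30 (Gnl2), and 48 of 50 are right of 0.

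Transcripts stored in the oocyte differed as well. All 10 oocyte maternal markers (among them Gdf9, Bmp15 and Zp3) were detected in both groups, and they summed to 2166 to 4839.7 CPM in control and 652 to 1945 in light, without overlap. The control library with the lowest oocyte sum, number 17 (2166), had the highest member sum of the control group (7036), and the light library with the highest oocyte sum, number 16 (1945), had the lowest member sum of the light group (6478). The part of this in the differences of the members was not tested. Median ratio scaling took its factors from the 3432 genes with a read in every library. It lowered the median difference of all genes from 0.05 to -0.30, with a median of 0.76 for the members. It left 12 of the 27 calls and no other. Of all genes called, 58.0% were higher in light on the main scale and 23.7% with that scaling. Over the libraries left out in turn, the count of calls lay between 18 (without light 12) and 33 (without control 17), and without light 15, the library nearest to control, it was 32.

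At the 4-cell stage 1 member was called, Npm1, which fell in light, where 2.15% of all genes were called, 1.69% as higher and 0.466% as lower. Npm1 lay between 1846 and 3556 (median 3146) CPM in control and between 1120.1 and 1769 (median 1320.2) in light. It was the single member without overlap (0.819% of all genes), at a stage where the ratio of the rRNA-derived genes also set 5 of 6 control libraries apart, with a difference of -1.03 ± 0.18 (SE), adjusted p = 0.00707. Control library 3, which was nearest in expression to light libraries, had the lowest control level, and without it a second member was called, Utp18, for which the difference was 0.93 ± 0.36 (SE), adjusted p = 0.157 with all libraries and 1.17 without that one. The Npm1 call was lost without control 2, 5 or 6 or light 5, at differences between -0.99 and -0.96. The median difference of the members was 0.21, against 0.17 for all genes. None of the 8 genes of rDNA transcription and nucleolar organisation had a positive difference (median -0.38), while 18 of the 21 small subunit factors did (median 0.36).

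At the 8-cell stage 4 members rose in light, Tsr1, Nop56, Nhp2 and Nol11, and 0 fell, where 8.49% of all genes were called, 4.83% as higher and 3.66% as lower. Tsr1, a late factor of the small subunit, stood apart. Its levels were 17.1, 17.6, 25.4 and 43.2 CPM in control and between 113 and 296 (median 191) in light, without overlap, with a difference of 2.96 ± 0.35 (SE), adjusted p = 2.19e-05. Tsr1 (chromosome 11, 74898071 to 74909342) shares 32.3% of its exon bases with Srr on the opposite strand, from which unstranded reads cannot be told apart, and Srr had 15.4 to 56.7 CPM in control and 33.0 to 81.2 in light 8-cell libraries. Nop56 levels were 137, 158, 255 and 310.2 CPM in control and between 343 and 674 (median 500.4) in light. Every light library was above the control libraries, and the difference was 1.24 ± 0.26 (SE), adjusted p = 0.00433. Levels of Nhp2 (chromosome 11, 51619735 to 51623714) were 181, 183, 198 and 347 CPM in control and between 341 and 610.5 (median 479.6) in light. The highest control library reached into the light range, and the difference was 1.10 ± 0.24 (SE), adjusted p = 0.00468, falling to 0.99 with median ratio scaling, where it was no longer called. The call of Nol11 (1.03 ± 0.33 SE, adjusted p = 0.0486) was lost under 5 of the other settings and without any of 8 libraries, the lowest difference being 0.81 without control 1. In all, 5 members did not overlap (5.61% of all genes), the other 3 being the methyltransferase Emg1 (0.82), Imp4 (0.89) and Ubtf (0.67), which were not called. The median of the members was 0.20, against 0.08 for all genes. The oocyte markers again did not overlap, at 242 to 393 CPM in control and 100.2 to 191 in light, and their part was not tested.

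In morulae 0 members were called by limma and 0 by edgeR, with 13 at an unadjusted p under 0.05, where 1.59% of all genes were called (0.847% as higher and 0.742% as lower). Npm1 came nearest. It lay between 2547 and 4209.7 (median 3005) CPM in control and between 1241 and 2149 (median 1757) in light, the single member without overlap (0.513% of all genes). Its difference of -0.88 ± 0.13 (SE), adjusted p = 0.000471, passed the adjusted p but not the fold, and it was called lower on the deposited scale and with median ratio scaling, at -1.07 and -1.01. Nop10 lay between 101 and 254 (median 155) CPM in control and between 52.4 and 129 (median 80.8) in light, overlapping, with a difference of -0.99 ± 0.30 (SE), adjusted p = 0.0791. The median of the members was 0.30, against 0.25 for all genes.

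In blastocysts 0 members were called by limma and 0 by edgeR, with 5 at an unadjusted p under 0.05, where 1.9% of all genes were called (1.03% as higher and 0.865% as lower). The smallest p belonged to Nop10 and Mphosph10, and for these and for Ubtf (0.85) the groups did not overlap, as for 7.21% of all genes. Nop10 levels were 26.8, 39.4 and 45.7 CPM in the 3 control libraries and between 49.4 and 223 (median 107) in light (1.50 ± 0.47 SE, adjusted p = 0.11). Levels of Mphosph10, of the complex with Imp3 and Imp4, were 14.0, 18.2 and 25.2 CPM in control and between 38.7 and 103 (median 54.4) in light (1.55 ± 0.51 SE, adjusted p = 0.129). The summed trophectoderm markers, all 10 detected in both groups, were 915 to 9642 CPM in control and 10487 to 15017 in light, without overlap, and those of the inner cell mass 1459.5 to 4359.5 and 1115 to 2645, and Y-linked reads reached 10 CPM in 6 of 6 light and 0 of 3 control libraries. The part of these differences in the members' values was not tested.

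Over the 5 stages, 28 members were called between light and control at 1 stage, 2 (Nop56 and Nol11) at both the 2-cell and the 8-cell stage, and 20 at none. Of all 11319 genes tested at every stage, 23.3% were called at 1 stage, 3.6% at 2 and 72.7% at none. Among the 20 were fibrillarin, nucleolin, Nop58 and the genes of the PeBoW complex.

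The second question was how the members changed between stages within each group. In control, from the 2-cell to the 4-cell stage, when the mouse embryonic genome is activated, 31 members rose and 1 fell, where 47.9% of all genes were called, 17.7% as higher and 30.2% as lower. The median change was 1.58 for the members and -0.50 for all genes, and for 20 members the stages did not overlap (21.9% of all genes). Gnl2 changed most, by 4.33 ± 0.69 (SE), adjusted p = 2.92e-05, from 16.9 ± 11.6 to 239 ± 82.5 CPM (SD, n = 7 and 6). Npm1 rose by 3.43 ± 0.25 (SE), adjusted p = 1.57e-09, from 277 to 2899.7 CPM, and no 2-cell library was above 408 or 4-cell library below 1846. Ddx56 (3.14 ± 0.59) and Mybbp1a (3.01 ± 0.44) followed. All 3 box C/D proteins rose, as did 7 of the 8 genes of rDNA transcription and organisation (Tcof1 did not pass), 12 of the 21 small subunit and 7 of the 14 large subunit factors. The single fall was that of Rrs1, a factor of large subunit assembly, from 63.8 ± 27.1 to 24.0 ± 29.6 CPM (-1.90 ± 0.59 SE, adjusted p = 0.0121), which edgeR did not call.

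Between the 4-cell and the 8-cell stage of control embryos 1 member fell, Tsr1 (-2.73 ± 0.50 SE, adjusted p = 0.00478), where 1.86% of all genes were called, 0.601% as lower. Tsr1, Emg1 and Gnl2 did not overlap between these stages (4.63% of all genes). Tsr1 went from 171 ± 51.7 to 25.8 ± 12.2 CPM. Srr, with which it shares exon bases, had 88.5 ± 20.7, 30.1 ± 18.3 and 65.9 ± 30.7 CPM in control 4-cell, 8-cell and morula libraries (SD). In light it had 95.5 ± 32.8, 55.5 ± 17.3 and 68.9 ± 19.6. The part of Srr reads in the stage changes and interactions of Tsr1 was not tested. The count of called members rose to 11, all lower, on the deposited scale, where the median of all genes was -0.56, and to 4 in 1 fit over all libraries. From the 8-cell stage to the morula 3 members rose and 3 fell, where 15.2% of all genes were called (6.23% as higher and 8.96% as lower), and all but Heatr1 of these 6 did not overlap (5.84% of all genes). Tsr1 (2.22 ± 0.41 SE, adjusted p = 0.000475), Nhp2 (1.71 ± 0.24 SE, adjusted p = 1.55e-05) and Npm1 (1.16 ± 0.15 SE, adjusted p = 7.7e-06) rose. The 3 that fell are small subunit factors. Rrp12 changed by -2.25 ± 0.58 (SE), adjusted p = 0.00836, Wdr43 by -1.53 ± 0.33 (SE), adjusted p = 0.00189 and Heatr1 by -1.44 ± 0.48 (SE), adjusted p = 0.0423, and the call of Heatr1 was lost with no filter, with both other scalings and without any of 7 libraries (range -1.51 to -1.12).

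From the morula to the blastocyst 14 members fell in control and 0 rose, where 13.2% of all genes were called, 7.77% as higher and 5.39% as lower. The median of the members was -0.90, against 0.40 for all genes, and 10 did not overlap (8.77% of all genes). Nhp2 fell most. It lay between 468 and 1331 (median 709) CPM in morulae, and the 3 blastocyst values were 121, 125 and 216, a change of -2.26 ± 0.27 (SE), adjusted p = 2.75e-06. Nolc1 (-2.18 ± 0.27), Npm1 (-2.15 ± 0.17) and Nop10 (-2.14 ± 0.37) followed, each without overlap. Of the role groups, 3 of 4 box H/ACA proteins, 5 of 8 genes of rDNA transcription and organisation and 2 of 21 small subunit factors (Rrp9 and Emg1) fell. The count was 9 with median ratio scaling, 9 by edgeR, 8 without control blastocyst 2 and 9 without control blastocyst 3, and without control morula 26, which was nearest to a 4-cell library, it was 13.

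In the light group, 14 members rose and 1 fell from the 2-cell to the 4-cell stage, where 35.1% of all genes were called, 10.9% as higher and 24.2% as lower. The median was 0.42, against -0.33 for all genes, and 10 did not overlap (12.6% of all genes). Nol6, which was low in 2-cell libraries of both groups, rose most, from 95.3 ± 102 to 273 ± 166 CPM (2.57 ± 0.64 SE, adjusted p = 0.00238). Npm1 rose by 1.90 ± 0.19, Wdr12 by 1.85 ± 0.34 and Gnl2 by 1.60 ± 0.36, all 3 without overlap. Rrs1 fell in light as well (-1.97 ± 0.38 SE, adjusted p = 0.000162). Of the genes that rose, 13 were shared with control, which is 41.9% of the 31 in control and 92.9% of the 14 in light. On the deposited scale 6 rose and 3 fell.

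From the 4-cell to the 8-cell stage of light embryos 0 members were called by limma and 0 by edgeR, with 14 at an unadjusted p under 0.05, where 2.39% of all genes were called. On the deposited scale 8 were lower, with a median of -0.45 for all genes, and without light 8-cell 12 there was 1. From the 8-cell stage to the morula 6 fell and 0 rose, where 10.6% of all genes were called, 5.2% as higher and 5.4% as lower, and 4 members (Nolc1, Imp3, Wdr43 and the uncalled Heatr1) did not overlap (3.68% of all genes). Wdr43 fell from 915 ± 205 to 266 ± 149.7 CPM (-1.96 ± 0.28 SE, adjusted p = 3.82e-05). Utp3 (-1.76 ± 0.40), Imp3 (-1.67 ± 0.36) and Mphosph10 (-1.22 ± 0.33), all of the small subunit, and Nolc1 and Ubtf were the others. Wdr43 was the 1 gene that fell in both groups here, of 3 in control and 6 in light.

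From the morula to the blastocyst 16 members fell in light and 0 rose, where 13.3% of all genes were called, 7.94% as higher and 5.34% as lower. The median was -0.84, against 0.01 for all genes, and 7 did not overlap (6.21% of all genes). Gar1 of the H/ACA particle fell from 147 ± 36.0 to 36.6 ± 19.2 CPM (-2.13 ± 0.41 SE, adjusted p = 0.000634). Ddx21 (-1.91 ± 0.34), Ebna1bp2 (-1.82 ± 0.31) and Npm1 (-1.69 ± 0.23) followed. The fall of 9 genes was common to the groups, 64.3% of the 14 in control and 56.2% of the 16 in light: Ddx21, Ebna1bp2, Gar1, Mybbp1a, Ncl, Nhp2, Nolc1, Npm1 and Rrp9. On the deposited scale, where the median of all genes was -0.45, 38 members were lower in light blastocysts than in light morulae.

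The third question was whether the change between stages differed between the groups, tested as the change in light minus the change in control. It uses the same libraries as the comparisons above and is no independent evidence of them. From the 2-cell to the 4-cell stage the change was lower in light for 11 members and higher for 0, where 4.06% of all genes were called, 2.13% as lower. The median difference in change was -1.05, against 0.09 for all genes. Nop56 changed by 2.60 in control and 0.25 in light, a difference of -2.35 ± 0.38 (SE), adjusted p = 0.000779. Dkc1 changed by 1.98 and -0.49 (-2.47 ± 0.45 SE, adjusted p = 0.00224), and in light its levels of 332 ± 72.1 CPM in 2-cell and 245 ± 88.4 in 4-cell libraries gave no call (adjusted p = 0.138). Npm1 rose in both groups, by less in light (-1.53 ± 0.32 SE, adjusted p = 0.00508). The others were Gnl2, Ubtf, Ebna1bp2, Rrp1, Ddx21, Mybbp1a, Nolc1 and Emg1. There were 7 without light 2-cell 12, the lowest count over libraries left out.

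**Figure D4:**
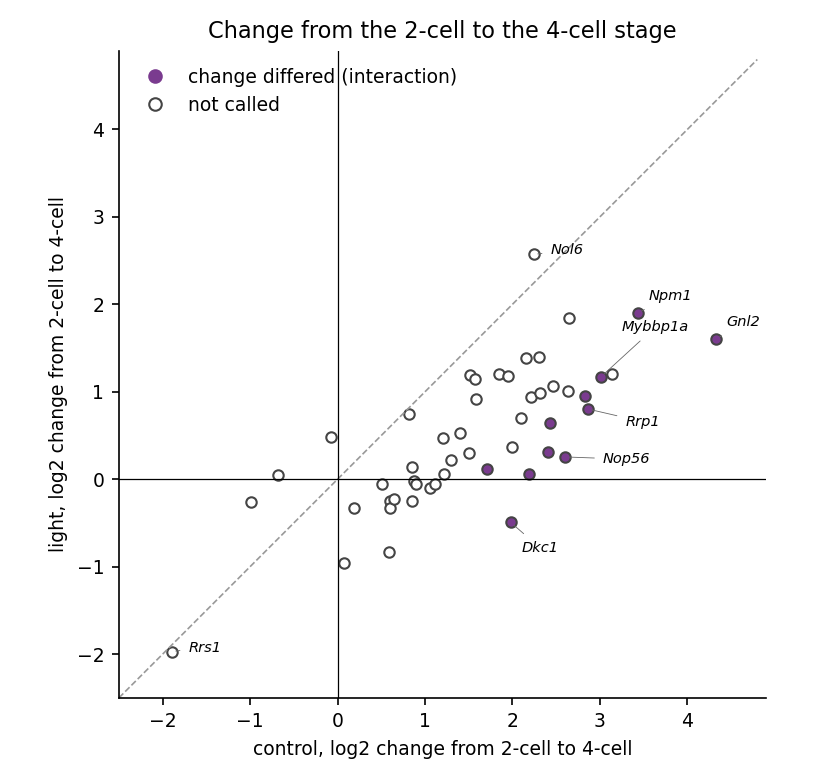
Log2 change of each member from the 2-cell to the 4-cell stage in control (horizontal axis) and light (vertical axis), with a dashed line where both are equal and filled points where the changes differed by the interaction test. The 11 filled points lie below the line, with Gnl2 at 4.33 in control and 1.60 in light, while Nol6 and Rrs1 lie close to it.

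From the 4-cell to the 8-cell stage the change was higher in light for 5 members and lower for 0, where 4.78% of all genes were called, 1.82% as higher. They were Tsr1 (2.57 ± 0.42 SE, adjusted p = 0.00044), Nhp2 (1.60 ± 0.35 SE, adjusted p = 0.00435), Npm1 (1.09 ± 0.25 SE, adjusted p = 0.00636), Nop56 and Emg1. Npm1 went between these stages from 2899.7 ± 634 to 1449 ± 352 CPM in control, which passed the adjusted p (0.0356) but not the fold, and stood at 1407 ± 225 and 1513 ± 319 in light. Its interaction was lost with median ratio scaling (0.99) and without control 8-cell 4 (0.98). From the 8-cell stage to the morula it was lower in light for 2 members, Tsr1 (-2.44 ± 0.46 SE, adjusted p = 0.00128) and Nhp2 (-1.50 ± 0.32 SE, adjusted p = 0.00433), where 2.41% of all genes were called, 1% as lower. From the morula to the blastocyst it was higher in light for 1, Nop10 (2.49 ± 0.56 SE, adjusted p = 0.0122), where 1.5% of all genes were called and 0.486% as higher. Nop10 fell in control, from 170.3 ± 50.4 to 37.3 ± 9.61 CPM, and in light had 87.2 ± 34.0 and 118 ± 64.0. This call was lost on the deposited scale (1.91) and without control blastocyst 1 (2.27).

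The member with the highest mean level of each role group was followed through all stages. Nop58 (box C/D) had means of 165, 574, 463, 381 and 284 CPM in control over the 5 stages in order and 302, 636, 640.2, 392 and 252 in light, highest at the 4-cell stage in control and about equal at the 4-cell and 8-cell stages in light. Nhp2 (box H/ACA) had 106 ± 59.0, 421 ± 128, 227 ± 80.1, 741 ± 214 and 154 ± 53.5 CPM in control and 187 ± 83.4, 291 ± 52.9, 479 ± 98.7, 567 ± 159.6 and 246 ± 69.9 in light. Nhp2 was highest in morulae in both groups, with a lower 8-cell value in control between the 4-cell stage and the morula. Npm1 (nucleolar organisation, chromosome 11, 33152287 to 33163206) had 277 ± 94.4, 2899.7 ± 634, 1449 ± 352, 3218 ± 611 and 719 ± 133 CPM in control and 386 ± 109.9, 1407 ± 225, 1513 ± 319, 1748 ± 310.3 and 546 ± 133 in light, where the 4-cell, 8-cell and morula levels overlapped. Wdr43 (small subunit, chromosome 17, 71615895 to 71659031) had 157 ± 38.8, 722 ± 283, 558 ± 133, 203 ± 85.5 and 98.2 ± 42.9 CPM in control and 344 ± 103, 895 ± 231, 915 ± 205, 266 ± 149.7 and 128 ± 27.3 in light, with the 4-cell and 8-cell stages high in both groups. Ebna1bp2 (large subunit, chromosome 4, 118620799 to 118627776) had means of 65.7, 349, 357, 204 and 68.5 CPM in control and 248, 311, 363, 337 and 95.6 in light.

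**Figure D5:**
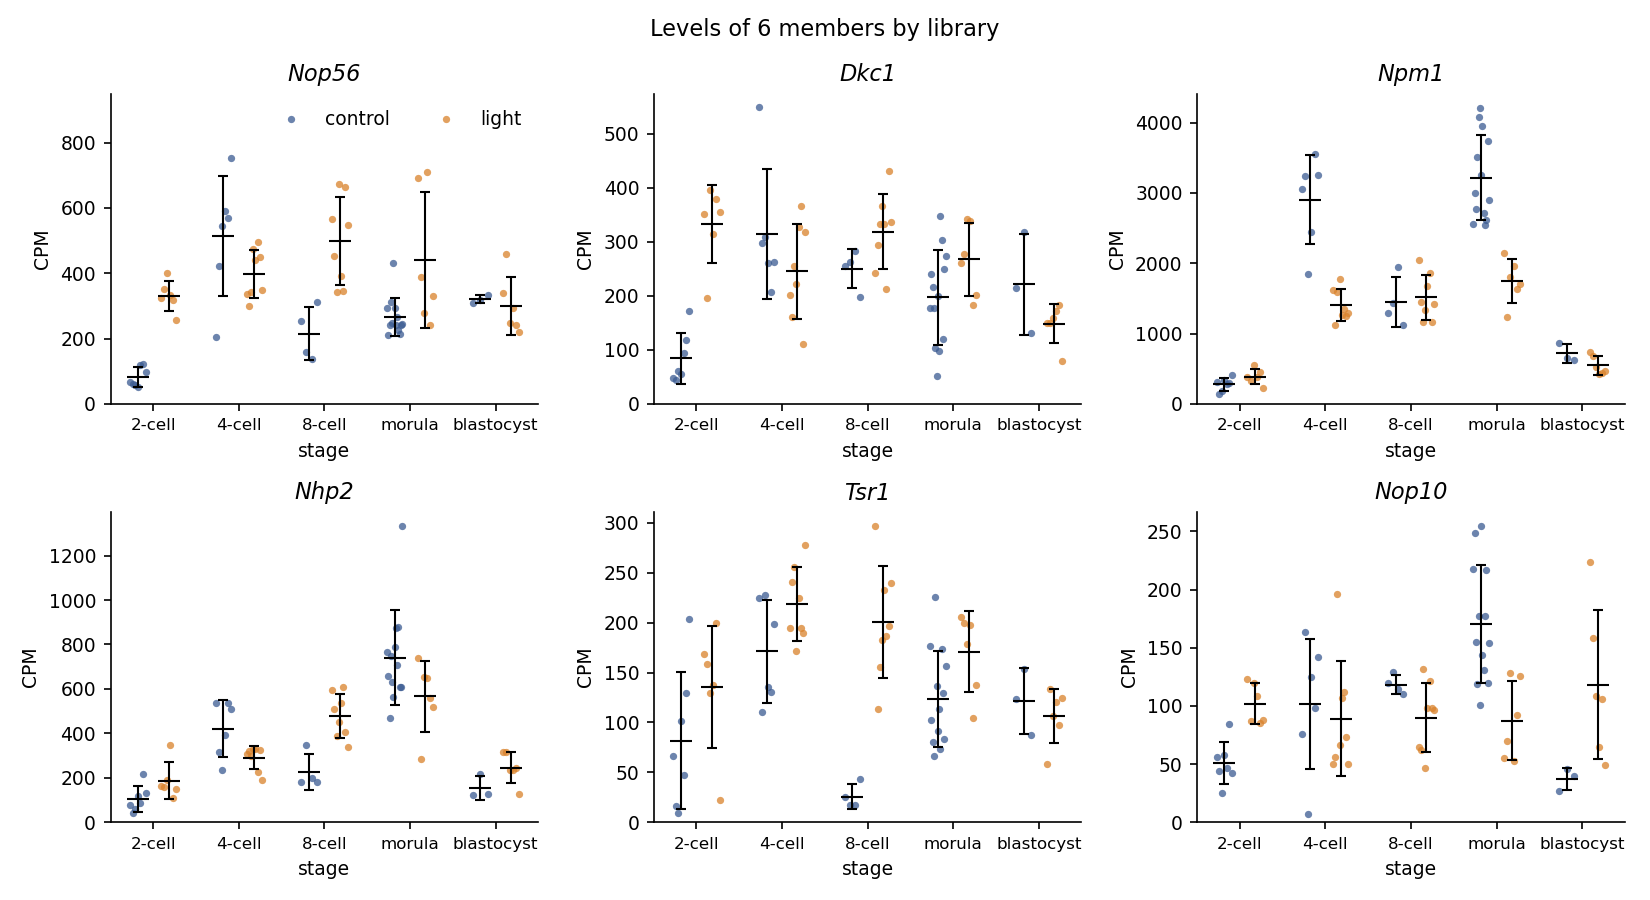
CPM (vertical axes, each from 0) of Nop56, Dkc1, Npm1, Nhp2, Tsr1 and Nop10 in every library (points) by stage (horizontal axes), control in blue and light in orange, with the mean and SD of each group as bars. Control and light libraries do not overlap for Nop56 and Dkc1 in 2-cell, for Npm1 in 4-cell and morula, or for Tsr1 in 8-cell embryos, where the 4 control libraries lie between 17.1 and 43.2 CPM.

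Other genes of the pathway were read from lists, described by their counts with no test of a list. At the 2-cell stage 17 of 30 further small subunit factors rose in light (median 1.65), for example Pno1, a late small subunit factor, from 76.2 ± 47.4 to 392 ± 156 CPM (2.56 ± 0.39 SE on the log2 scale). Of 42 further large subunit factors 22 rose (median 1.28), such as the helicase Ddx54 (1.92 ± 0.31 SE). Of 10 snoRNP assembly factors 7 rose, with Ruvbl1, an ATPase of the assembly chaperone, at 2.19 ± 0.36 (SE). Of 15 genes of RNA polymerase I and its factors 2 rose, the second largest subunit Polr1b (1.71 ± 0.41 SE) and Cd3eap (2.37 ± 0.59 SE). The RNA exosome and the nucleases of the precursor gave 5 rises and 1 fall among 16, with Isg20l2 at 1.94 ± 0.46 (SE) and Mphosph6, which fell from 1111 ± 396 to 416 ± 153 CPM, at -1.40 ± 0.26 (SE). For 11 snoRNA host genes and 10 genes of the Myc and Max network the medians were 0.24 and 0.50, with 0 and 2 at an unadjusted p under 0.05.

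The ribosomal proteins, the cargo of this pathway, were also read. Of 91 cytosolic ribosomal protein genes 39 rose in light at the 2-cell stage (median 1.02, Rplp0 at 1.63 ± 0.26 (SE)), against 6.94% of all genes. At the 4-cell stage 7 fell (median -0.73, Rps9 at -1.06 ± 0.23 (SE)), against 0.466% of all genes. In morulae 6 of 90 fell (median -0.49, Rplp2 at -1.53 ± 0.19 (SE)), against 0.742% of all genes. At the 8-cell stage 3 of 91 rose, with 62 positive (median 0.16), against 4.83% of all genes called higher. In blastocysts 1 of 89 rose, with 77 positive (median 0.56), against 1.03% of all genes. From the 2-cell to the 4-cell stage 85 of 91 rose in control (median 3.24) and 72 in light (1.50), against 17.7% and 10.9% of all genes. The change was lower in light for 47, against 2.13% of all genes. From the morula to the blastocyst 74 of 90 fell in control and 50 in light, against 5.39% and 5.34% of all genes. Of 77 mitochondrial ribosomal proteins, which are assembled outside the nucleolus, 15 rose in 2-cell (median 0.82) and 10 in 8-cell embryos (0.49). The shares of all genes called higher were 6.94% and 4.83% there. Of the other lists at the 4-cell stage, 1 of 42 further large subunit factors rose, Surf6 (1.23 ± 0.31 SE). Of 16 exosome and nuclease genes 2 rose, Isg20l2 (1.50 ± 0.35 SE) and Dis3 (1.37 ± 0.37 SE). Of 10 snoRNP assembly factors 1 rose, Snu13 (1.06 ± 0.23 SE), a core protein of box C/D particles. Of 10 genes of the Myc and Max network 1 was called, Myc, at 29.2 ± 48.5 CPM in control and 115 ± 151 in light (3.25 ± 0.88 SE). The share of all genes called higher was 1.69% at this stage. At the 8-cell stage 1 of 30 further small subunit factors (Ltv1) and 2 of 42 large subunit factors (Brix1 and Pak1ip1) rose. Of 16 exosome and nuclease genes 4 rose, Exosc7 and Exosc4 among them, against 4.83% of all genes. Baz2a (-1.06 ± 0.18 SE), part of a complex that silences rDNA, fell, as 1 of 15 genes of the polymerase list. Naf1 (-1.09 ± 0.29 SE) fell as 1 of 10 snoRNP assembly factors, against 3.66% of all genes. In morulae 1 of 42 further large subunit factors rose, Ppan (1.43 ± 0.38 SE), against 0.847% of all genes. In blastocysts Rps26 (1.72 ± 0.42 SE) was the 1 of 89 cytosolic ribosomal proteins that rose. Mrps21 (2.32 ± 0.56 SE) was the 1 of 77 mitochondrial ones, against 1.03% of all genes.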

How the data were processed

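RNA of 67 libraries (SMART-seq2) was sequenced. Per the submitters' processing notes, HISAT2, HTSeq 0.9.1 and the build mm9 were used, and strand was not given in the sources used here. The deposited values are a signal, which the authors made by dividing the reads on each of 26414 genes by a size factor of the library. Multiplied back, 99.97% or more of the values of a library came out as whole reads (tolerance 0.01 reads), and the 11 genes with another value include no member. What the size factor rests on was not tested. Values were rescaled to CPM without CT010467.1 and Gm42418, which took most of the reads in every library. R 4.3.3 with limma 3.58.1 (moderated by eBayes, trend on) was fitted to log2(CPM + 1) of all genes with CPM above 1 in at least 3 libraries compared, with no covariate. A fold change is on that scale, which understates low genes. Calls needed a Benjamini-Hochberg adjusted p under 0.05 over all genes and a change of 2-fold or more.

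The members, lists and tests were chosen with earlier results of these data known. Named members are those with the highest level in each role group, up to 6 called members per direction at each stage (the 2 with the smallest p where fewer were called), up to 4 per direction for each change between stages and up to 3 per interaction. Of the other lists, up to 2 called genes are named per stage. Genes in counts of 5 or fewer, and those named to describe a complex or a role group, were chosen after their values were seen. Alternatives were log2(CPM + 5), no filter, a mean CPM above 5, the deposited scale, median ratio scaling, edgeR 4.0.16 (quasi-likelihood, TMM) on the recovered reads, 1 fit over all libraries, a block for the replicate number, and leaving out each library. Depth limits low genes, since 1 read was worth 0.349 to 3.14 CPM, and reads carry no molecular identifiers. The tests were run on simulated data first. Coordinates are GRCm38 (GENCODE M21), matched by symbol, and promoters are RefSeq GRCm38.p6. Python 3.11.15, numpy 2.4.6, pandas 2.3.3, scipy 1.17.1 and matplotlib 3.10.9 were used.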

Additional observations from a re-analysis of the deposited data

Results flagged for a closer look

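Of 88 sets of 4 to 10 libraries tested for a library far from the rest, 4 gave one, and chance gives about 1 in 20. The summed large subunit factors of control 4-cell library 1 were 3066 CPM, with 2414 as the next value. Nhp2 was 349 CPM in light 2-cell library 14 (next 192) and 347 CPM in control 8-cell library 2 (next 198). Wdr43 was 757 CPM in the same control 8-cell library (next 501).

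The change from the 2-cell to the 4-cell stage differed between light and control, by the interaction test of limma, for Gnl2 (-2.73 on the log2 scale, light minus control), Dkc1 (-2.47), Nop56 (-2.35), Ubtf (-2.13), Ebna1bp2 (-2.09), Rrp1 (-2.06), Ddx21 (-1.87), Mybbp1a (-1.84), Nolc1 (-1.79), Emg1 (-1.59) and Npm1 (-1.53). From the 4-cell to the 8-cell stage it differed for Tsr1 (2.57), Nhp2 (1.60), Nop56 (1.53), Emg1 (1.38) and Npm1 (1.09). From the 8-cell stage to the morula it differed for Tsr1 (-2.44) and Nhp2 (-1.50), and from the morula to the blastocyst for Nop10 (2.49). The 8-cell control value, which had 4 libraries, enters each of the interactions of Tsr1 and Nhp2.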

How the results depend on the processing

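None of the 54 values of named members changed its direction under any alternative, and the direction of the other calls is not given. At the 2-cell stage the 27 members called were 12 with median ratio scaling, 44 with the replicate block and 43 without the block over the same 6 libraries that share a number, a repeat chosen after seeing the data. At the 4-cell stage the count of 1 was 2 without control replicate 3 and 0 with the replicate block and over the same libraries without it, where 6 libraries remained. The deviations of libraries with the same number correlated between -0.065 and 0.054, and 2 of 20 libraries correlated best with their own number. This gave no sign of pairing by number, but the spread between single cells could hide one. The 8-cell and blastocyst groups share no number. At the 8-cell stage 2 were called with median ratio scaling (4 on the main scale), and in morulae 1 on the deposited scale and 2 with median ratio scaling (0 on the main scale). Between stages, the deposited scale gave 11 for control from the 4-cell to the 8-cell stage (1 on the main scale, 4 in 1 fit over all libraries), 9 for light from the 2-cell to the 4-cell stage (15), 8 for light from the 4-cell to the 8-cell stage (0), 38 for light from the morula to the blastocyst (16) and 0 for the last interaction (1). Control from the morula to the blastocyst gave 9 with median ratio scaling and 9 by edgeR (14). The causes of these shifts in the counts were not tested.

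With libraries left out in turn, the counts for light against control were 18 to 33, 0 to 2, 3 to 5, 0 to 0 and 0 to 0 over the 5 stages in order. The control changes gave 29 to 34, 1 to 2, 5 to 8 and 8 to 15, the light changes 12 to 18, 0 to 1, 5 to 6 and 14 to 19, and the interactions 7 to 13, 4 to 7, 2 to 3 and 0 to 1. Of all genes called, the share called higher moved by over 10 points under 18 of 51 pairs of a comparison and a scaling. By edgeR it moved from 78.3% to 53.3% for light against control at the 4-cell stage, from 54.5% to 36.0% in blastocysts and from 34.9% to 47.0% for light from the 4-cell to the 8-cell stage. On the deposited scale it moved from 53.3% to 30.3% in morulae, from 54.5% to 7.12% in blastocysts (the median of all genes going from -0.04 to -0.64), from 67.7% to 18.1% for control and from 34.9% to 5.78% for light from the 4-cell to the 8-cell stage, from 31.0% to 20.4% for light from the 2-cell to the 4-cell stage, from 49.1% to 39.1% for light from the 8-cell stage to the morula, from 59.8% to 24.0% for light from the morula to the blastocyst, and from 58.6% to 45.4% and 32.5% to 7.55% for the last pair of interactions. With median ratio scaling it moved from 58.0% to 23.7% at the 2-cell stage, from 53.3% to 37.6% in morulae, from 37.1% to 24.9% for control from the 2-cell to the 4-cell stage, from 59.0% to 70.0% for control and 59.8% to 77.4% for light from the morula to the blastocyst, and from 47.7% to 80.3% for the first interaction. Of 1272 repeats of the values of named members, 1222 kept their side of the threshold, 46 fell below it and 4 passed it. Depth limits statements on members at a few CPM, which were mostly in 2-cell libraries, and groups of 3 and 4 libraries limit the blastocyst and 8-cell values of control.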
